A study of Homo sapiens with 4 samples.

Results

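Histone genes encode the proteins around which DNA is wound. On the array used here, 59 of the 18639 named genes were histone genes by the letters of their symbol in the platform annotation. The symbol had to begin with H1- or with H2A, H2B, H3 or H4, the latter followed by C and a number, by a hyphen, or by another letter and a number. Of these, 45 were genes of the replication-dependent clusters (symbols such as H2AC6 or H4C8, with H1-1 to H1-6), 12 were variant histones outside the cluster series (such as H3-3B, H2AZ1 and H1-10) and 2 were pseudogenes (H1-9P and H3P44). A gene counted as detected where at least 1 of its probes was brighter than the blank spots of the same array, by 2 SD over their mean. By this measure 44 of the 45 cluster genes, 11 of the 12 variants and both pseudogenes were detected on at least 1 array, and 53 of the 59 on all 4. H4C13 and H1-7 were detected on no array.

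The study used 2 lines of transgenic HEK293 cells, which derive from human embryonic kidney. LGP2 cells carried a transgene for LGP2, a helicase that senses foreign RNA together with RIG-I and MDA5, and 4KR cells one for LGP2-4KR, where the labels leave 4KR unexplained. Both lines were measured untreated (0 h) and at 12 h of short poly I:C, a mimic of viral double-stranded RNA that was transfected at 100 ng/ml. Each of the 4 groups is a single Cy5 array without a replicate, and this number limits the precision of all ratios. No array came from mock-transfected cells, so poly I:C cannot be told apart from the transfection or from 12 h in culture. The labels do not say how the transgene is driven or whether a line is 1 clone.

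A nucleosome holds 2 copies each of the core histones H2A, H2B, H3 and H4, and H1 binds the linker DNA between nucleosomes. The cluster genes are transcribed in S phase, when new DNA must be packed. Their messages normally end in a stem-loop, which the protein SLBP binds, and not in a poly(A) tail. Variant histone genes such as H3-3A and H2AZ1 are expressed through the cell cycle and carry poly(A) tails, and some cluster genes also give polyadenylated messages. Per the labels, the RNA was amplified with a kit that, as is generally known of this method, primes from poly(A) tails. Levels of cluster genes here therefore refer to whatever part of their RNA this step copies. In such bulk samples, fewer cells that express a gene and less of its RNA per cell cannot be told apart.

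Across the arrays, 83.2% and 83.8% of gene probes were detected in unstimulated LGP2 and 4KR cells, against 89.2% and 88.0% at 12 h. IFIT1, an interferon-induced RNA-binding protein that checks the stimulation, had deposited intensities of 17.2 and 7.80 in unstimulated LGP2 and 4KR cells and of 4267 and 4312 at 12 h. DHX58, the gene of LGP2, had deposited intensities of 41.4 and 22.8 unstimulated and of 51.0 and 42.6 at 12 h, and where its probe lies relative to the transgene is not known here. All 7 HEK293 markers with a probe, among them VIM, NEFL and PAX2, were detected on all 4 arrays, with a summed deposited intensity between 660.2 and 777.7. Of these, NEFL fell with stimulation, by a mean log2 ratio of -0.38 (limma adjusted p = 0.0250). Of 12 markers of blood, endothelial, liver and fibroblast cells, PTPRC, PECAM1 and ALB were detected on no array and 6 on all 4, with summed deposited intensities per cell type between 2.62 and 185.1. CD79A had a deposited intensity between 119.8 and 147.1. The mean log2 responses of the 9 tested markers of other cells lay between -0.05 and 0.06, and none passed the test used below for the response. In the account that follows, deposited intensities are the authors' values, scaled to a median of 25 on every array. Levels and ratios are log2 values after background correction with an offset of 50, which shrinks the ratios of dim genes, and quantile normalization. Levels are compared only within a gene and not between genes.

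The first comparison asked which histone genes responded to stimulation, with the 2 lines serving as 2 samples of the response. The test was limma's moderated fit over line and stimulation on all 17085 detected genes, with Benjamini-Hochberg adjustment. Of 44 cluster genes tested, 11 rose at an adjusted p under 0.05 and 0 fell, where 7.95% of all genes rose and 7.3% fell. At an unadjusted p under 0.05 the counts were 18 and 1, where 15.5% of all genes were higher and 17.4% lower. Of 11 variant genes, 2 rose, 1 fell and 8 did not pass. The 2 pseudogenes did not pass. The median of the mean log2 response was 0.09 over the cluster genes and 0.05 over the variants, against -0.01 over all genes.

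These calls depended on how the arrays were corrected and scaled. With plain subtraction of the blank level, limma called 74 genes higher and 0 lower, and of the histone genes only H4C5 passed. The 13 histone genes that rose then had adjusted p-values between 0.0385 and 0.145, with ratios above 0 in all 13. Without normalization between arrays, limma called 6927 genes higher and 21 lower, and with arrays scaled to 1 median 4159 and 410. In the deposited table it called 1165 higher and 78 lower, and 8 of the 13 passed. The fit has 1 residual degree of freedom per gene and a prior worth 2.28, and it takes no account of shifts shared by neighbouring probes. Its p-values measure only the spread between the responses of the lines, mixed with the spread over all genes that the prior brings in. Genes whose 2 responses nearly coincide therefore get nearly the same SE, such as 0.0299 for both H2AC25 and H4C7. The labels do not say whether the arrays come from separate cultures.

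**Figure D1:**
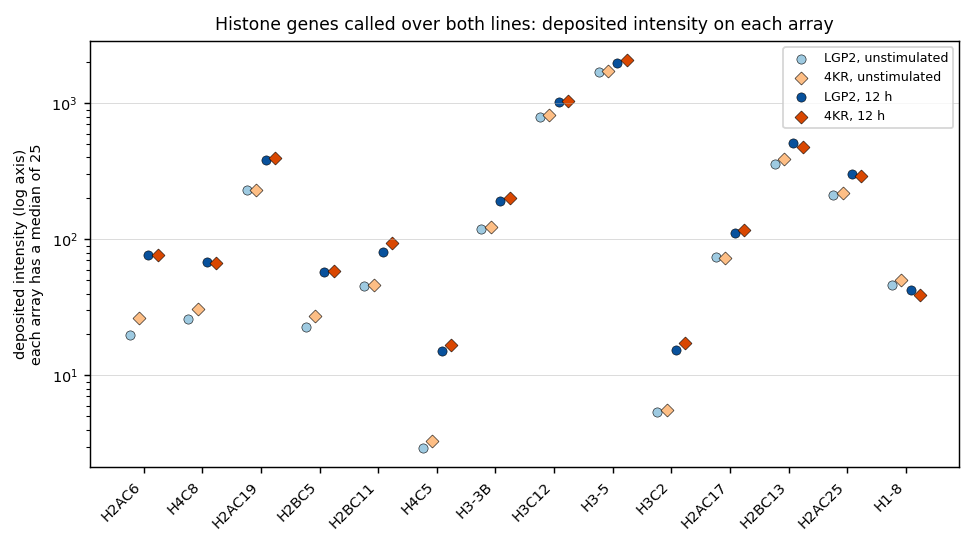
Deposited intensity (log axis, each array scaled to a median of 25) of the 14 histone genes called over both lines, with 1 point per array. Circles are LGP2 cells, diamonds 4KR cells, light symbols unstimulated and dark symbols 12 h. For the 13 genes called higher, both 12 h points lie above both unstimulated points, and for H1-8 both lie below. The genes were called from these same arrays, so this order is no separate support for the calls. In these intensities all genes had a median log2 ratio of 0.25 in LGP2 and 0.15 in 4KR cells.

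H2A genes of the clusters encode the main H2A proteins, and 4 of the 12 tested rose. H2AC6 had deposited intensities of 19.9 (LGP2) and 26.3 (4KR) unstimulated and of 77.0 (LGP2) and 77.4 (4KR) at 12 h. Both stimulated arrays were higher than both unstimulated arrays. This order, here and for the genes below, is no separate support, since the calls come from the same arrays. H2AC14, which did not pass, shows it too. The log2 ratios were 0.97 and 0.86 in these lines, a mean of 0.92 (SE 0.0426, limma adjusted p = 0.0214), or 1.89-fold. The mean was 1.76 in the deposited table, which has no offset, and 1.54 with plain subtraction (adjusted p = 0.0753). Next among the H2A genes was H2AC19, with deposited intensities of 232.0 and 230.0 unstimulated and 380.3 and 396.9 at 12 h in LGP2 and 4KR cells. Its log2 ratios were 0.49 and 0.67 (mean 0.58, SE 0.0568, limma adjusted p = 0.0261). H2AC17 and H2AC25 rose by means of 0.33 and 0.29. The other 8 tested cluster H2A genes, among them H2AC14 with deposited intensities of 257.0 and 262.7 unstimulated and 305.0 and 300.9 at 12 h, did not pass and had means between -0.08 for H2AC1 and 0.11 for H2AC20.

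Among the cluster H2B genes, which encode the partner of H2A in the dimer that lies on the outer face of the nucleosome, 3 of 13 rose. H2BC5 had deposited intensities of 22.9 and 27.2 in unstimulated LGP2 and 4KR cells and of 57.9 and 58.3 at 12 h. Both values at 12 h lie above both at 0 h, and the mean log2 response was 0.57 (SE 0.0330, limma adjusted p = 0.0233). H2BC11 had deposited intensities of 45.7 and 46.4 unstimulated and of 81.4 and 93.7 at 12 h, with a mean log2 response of 0.49 (SE 0.0656, limma adjusted p = 0.0357). H2BC13 had a mean of 0.32, and its probe lies in block 21, a part of the array where the responses of the lines differed for many probes. Its mean was 0.30 with the position correction, in which the median deviation of each block is subtracted. Shifts that differ between the probes of a block remain after this correction, so it cannot show that a gene is free of them. Block 21 had median responses of 0.05 in LGP2 and -0.02 in 4KR cells, while H2BC12 in that block had 0.44 and -0.08. The other 10 did not pass and had means between -0.02 for H2BC9 and 0.18 for H2BC12. H2BC9 had deposited intensities of 250 and 252.6 unstimulated and of 290.2 and 257.9 at 12 h.

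All 5 detected cluster H4 genes had ratios above 0 in both lines, and 2 passed the test. H4C8 had deposited intensities of 25.8 and 30.8 in unstimulated LGP2 and 4KR cells and of 68.5 and 67.6 at 12 h. Its log2 ratios were 0.68 and 0.60 (mean 0.64, SE 0.0367, limma adjusted p = 0.0233). H4C5 was near the background unstimulated, at deposited intensities of 2.93 and 3.30, and reached 15 and 16.7 at 12 h, with a mean log2 response of 0.44 and a limma adjusted p of 0.0245. In the deposited table its log2 ratios were 2.36 and 2.34, above those of H2AC6 (1.96 and 1.56), so the order of the responses depends on the offset. For both genes the deposited intensities at 12 h stand above those at 0 h without overlap. The same holds for H4C2, H4C7 and H4C9, which did not pass. H4C9 had deposited intensities of 262.9 and 167.9 unstimulated and of 370.2 and 326.4 at 12 h. Its log2 ratios, 0.31 in LGP2 and 0.79 in 4KR cells, differed enough between the lines that its limma adjusted p was 0.0958. Its probe lies in block 24, where the median response of all probes was -0.09 in LGP2 and 0.03 in 4KR cells. H4C2 and H4C7 had means of 0.35 and 0.17 and limma adjusted p-values of 0.0638 and 0.0510. H4C2, H4C7 and H4C9 passed with an offset of 16 (adjusted p = 0.0253, 0.0419 and 0.0281), with the position correction, without normalization and with scaling to 1 median. They did not pass with plain subtraction (0.148, 0.155 and 0.150) or in the deposited table.

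Of 8 tested cluster H3 genes, 2 rose. H3C12 had deposited intensities of 790.7 and 819.7 unstimulated and of 1017 and 1035 at 12 h in LGP2 and 4KR cells, with a mean log2 response of 0.39 (SE 0.0486, limma adjusted p = 0.0334). H3C2, a dim gene, went from 5.35 and 5.6 to 15.4 and 17.2, with a mean of 0.34. For both genes each array at 12 h exceeded each array at 0 h. H3C8 was the cluster gene with the most negative mean, -0.25, and its limma adjusted p was 0.0532. Its deposited intensities were 676.0 and 665.4 unstimulated and 579.4 and 570.3 at 12 h. Among genes detected on all 4 arrays its adjusted p was 0.0479. Unnormalized arrays gave it a mean of 0.14, with all genes shifted to medians of 0.12 in LGP2 and 0.26 in 4KR cells.

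The cluster H1 genes, which encode linker histones, showed no call in either direction. Their means ran from -0.04 for H1-5 to 0.07 for H1-3 over the 6 genes. H1-2 had deposited intensities of 238.7 and 340.3 in unstimulated LGP2 and 4KR cells and of 297.2 and 326.0 at 12 h. The arrays of the 2 times overlap, and its mean log2 response was 0.01 (SE 0.0684). H1-4 was detected only in 4KR cells at 12 h.

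**Figure D2:**
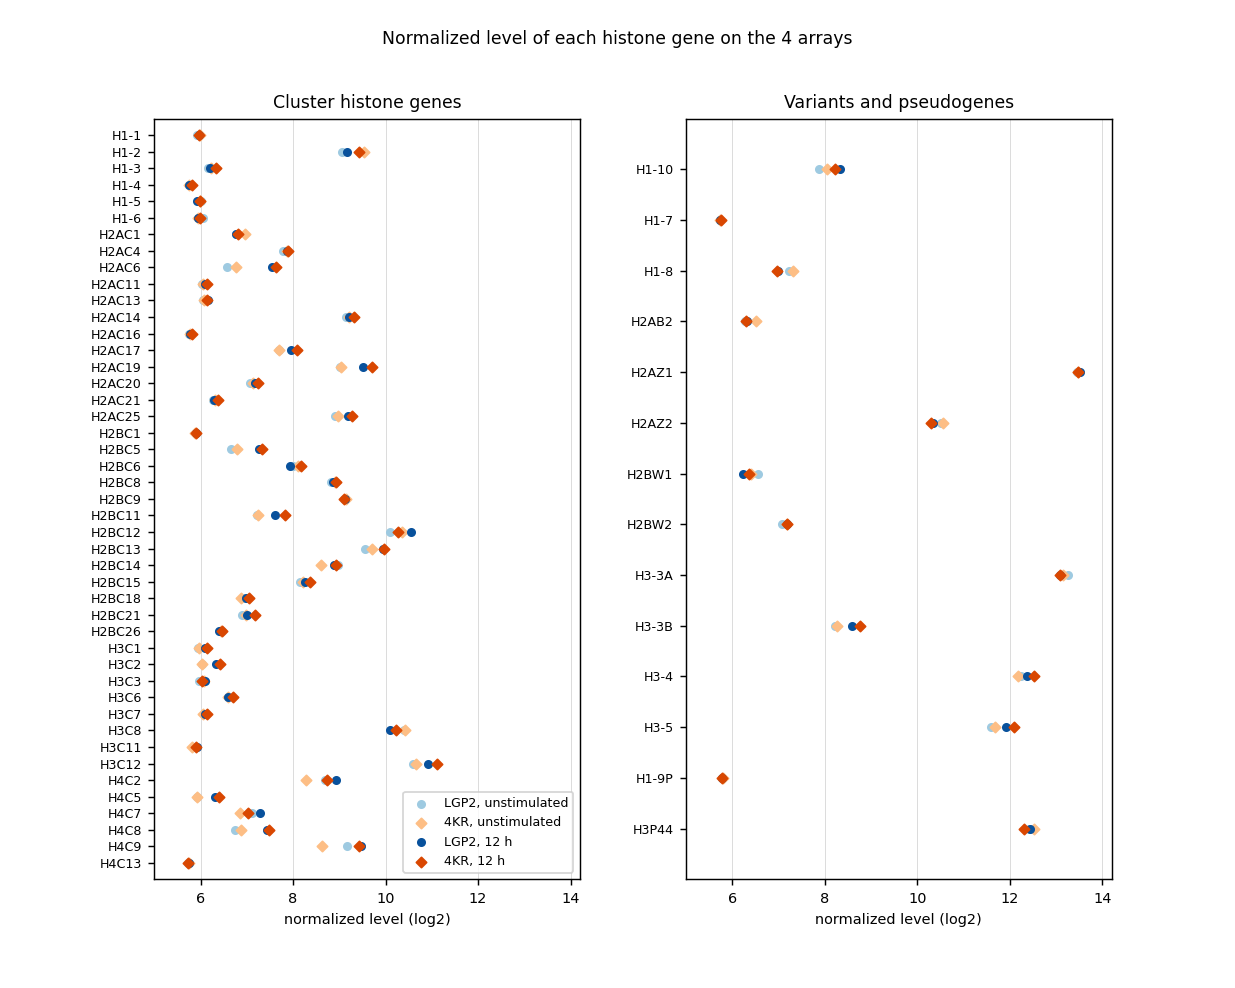
Normalized level (log2) of the 59 histone genes on each of the 4 arrays, with cluster genes on the left and variants and pseudogenes on the right. Circles are LGP2 cells, diamonds 4KR cells, light symbols unstimulated and dark symbols 12 h. H2AC6, H2BC5, H4C5 and H4C8 show dark symbols to the right of the light ones, while those of H1-1, H1-3 and H1-5 lie close together.

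Of the variant genes, those of the H3 family held both calls on the higher side. H3-3B, 1 of the 2 genes for the replacement histone H3.3, has 2 probes, and both gave the same picture. Their deposited intensities were 116.0 and 123.0 in unstimulated LGP2 cells and 117.7 and 127.3 in unstimulated 4KR cells. At 12 h they were 186.3 and 195.0 in LGP2 cells and 190.1 and 212.7 in 4KR cells. Each probe read higher on both arrays at 12 h than on both at 0 h, and the mean log2 response was 0.43 (SE 0.0452, limma adjusted p = 0.0279). The 2 probes share the same arrays and are not replicates. H3-5, a retrotransposed relative of H3-3B, had a mean of 0.36 (limma adjusted p = 0.0279) and deposited intensities of 1686 and 1718 unstimulated and 1977 and 2078 at 12 h. H3-3A, the other gene for H3.3, did not pass, with a mean of -0.11 and deposited intensities of 5445 and 5074 unstimulated and 4312 and 3904 at 12 h. H3-4, a testis histone, had deposited intensities of 2614 and 2432 unstimulated and of 2755 and 2679 at 12 h, and its mean of 0.23 did not pass.

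The remaining variants included H1-8, the single histone gene that fell at the main setting. This linker histone of the oocyte had deposited intensities of 45.9 and 49.9 unstimulated and of 42.4 and 38.9 at 12 h in LGP2 and 4KR cells. Its log2 ratios were -0.24 and -0.34 (mean -0.29, limma adjusted p = 0.0381). Its mean was 0.07 without normalization between arrays and -0.10 with arrays scaled to 1 median, and it did not pass in either. Without normalization its ratios of 0.03 in LGP2 and 0.11 in 4KR cells lay below the all-gene medians of 0.12 and 0.26. H2AZ2, 1 of the 2 genes for the variant H2A.Z, had a mean of -0.23 (limma adjusted p = 0.0520), and its 2 probes gave -0.25 and -0.11 in LGP2 cells and -0.27 and -0.27 in 4KR cells. H2AZ2 passed with an offset of 16 (adjusted p = 0.0498), with the position correction, without blocks 20, 21 and 24, and among genes detected on all 4 arrays, and so did H3C8. Without normalization between arrays the mean of H2AZ2 was 0.13. Its ratios there, 0.08 in LGP2 and 0.19 in 4KR cells, also lay below the all-gene medians. H2AZ1, the other H2A.Z gene, had deposited intensities of 6344 and 6322 unstimulated and of 6006 and 5108 at 12 h, and a mean log2 response of 0.05. H1-10, a linker variant, had deposited intensities of 88.1 and 101.6 unstimulated and of 153.9 and 129.8 at 12 h. Its arrays at 12 h were both higher, with log2 ratios of 0.45 and 0.16, but the limma adjusted p was 0.113. The X-linked H2BW1 and H2AB2 had means of -0.18 and -0.08 and did not pass.

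Seen line by line, where no test is possible, 3 of 43 cluster genes in LGP2 cells and 5 of 44 in 4KR cells were at least 1.5-fold higher at 12 h, against 1.88% and 1.59% of all genes. The 3 in LGP2 cells were H2AC6, H4C8 and H2BC5, and the 5 in 4KR cells were H2AC6, H4C9, H2AC19, H4C8 and H2BC11. None of the cluster genes or variants was at least 1.5-fold lower in either line, where 0.51% and 0.423% of all genes were. With plain subtraction H1-6 and H2BW1 were that much lower in LGP2 cells and H2AB2 in 4KR cells, where 4.57% and 4.07% of all genes were, and in the deposited table H2BW1 was in LGP2 cells. The 44 detected cluster genes had a median log2 ratio of 0.10 in either line, against -0.01 over all genes in each line. By family, the cluster medians in LGP2 and 4KR cells were 0.01 and 0.01 for H1, 0.10 and 0.09 for H2A, 0.05 and 0.16 for H2B, 0.10 and 0.10 for H3, and 0.31 and 0.47 for H4. The share of detected probes also rose with stimulation, and its part in these ratios was not tested. In the deposited table the cluster medians were 0.48 and 0.44 against 0.25 and 0.15 over all genes, and the counts past 1.5-fold were 14 of 42 and 13 of 41, where 20.6% and 13.2% of all genes passed.

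**Figure D3:**
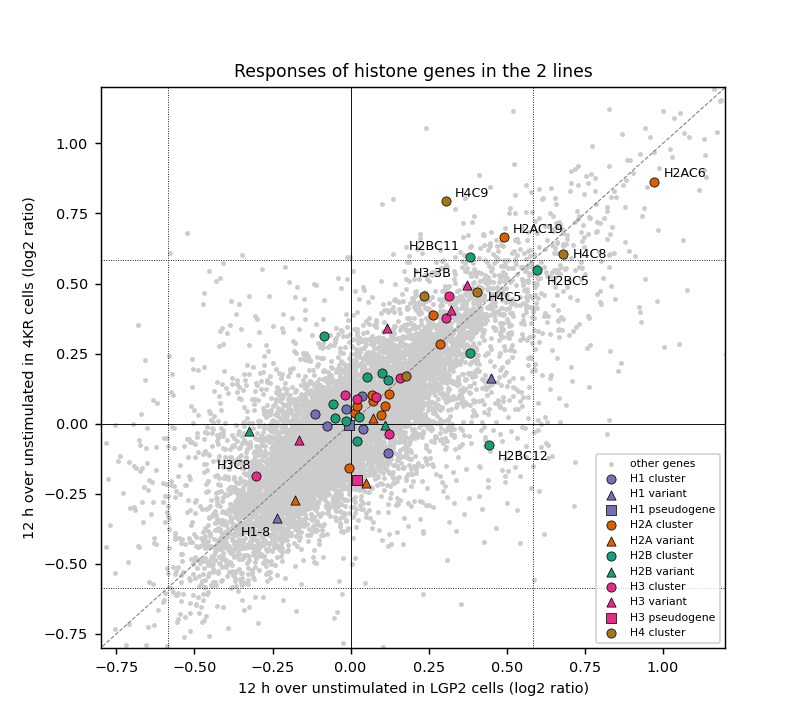
Log2 ratio of 12 h over unstimulated in LGP2 cells (x axis) and 4KR cells (y axis) for histone genes, coloured by family, over other genes in grey. Axes cover only the region around the histone genes, dotted lines mark 1.5-fold and the dashed line equal responses. H2AC6 lies at 0.97 and 0.86, past 1.5-fold in both lines, as does H4C8, while H2BC12 and H4C9 lie away from the dashed line.

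Histone genes of 1 family encode nearly the same proteins. Probe sequences are not used here, so how much sequence the probes share with related genes is not known. Signal at 1 gene, above all at testis genes and pseudogenes such as H3-4 and H3P44, may therefore hold RNA of its relatives, which was not tested. The stretches before the starts of these genes differ more than their coding parts. They are shown for 6 genes that rose, as the 150 bases before the annotated start, read 5′ to 3′ on the gene's strand from RefSeq's annotation of GRCh38.p14. The array files name no build, and none of their values rests on these positions. Capitals mark the TATA box, searched as TATAAA, the motif known as the CCAAT box, searched by those letters, and the octamer typical of H2B promoters, searched as ATTTGCAT. The core of the interferon-stimulated response element, which is a pair of GAAA runs with 2 bases of any kind between them, was searched too. Each was searched on both strands. In the stretches shown no match overlaps another.
H2AC6, chr6:26124022-26124171, plus strand: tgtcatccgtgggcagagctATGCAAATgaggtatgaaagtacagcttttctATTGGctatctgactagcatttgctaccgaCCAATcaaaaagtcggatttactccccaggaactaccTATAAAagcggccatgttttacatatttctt
H2BC5, chr6:26157971-26158120, plus strand: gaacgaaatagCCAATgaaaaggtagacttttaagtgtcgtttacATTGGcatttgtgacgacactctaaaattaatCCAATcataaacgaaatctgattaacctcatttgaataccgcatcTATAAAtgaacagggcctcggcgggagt
H2AC19, chr1:149850911-149851060, plus strand: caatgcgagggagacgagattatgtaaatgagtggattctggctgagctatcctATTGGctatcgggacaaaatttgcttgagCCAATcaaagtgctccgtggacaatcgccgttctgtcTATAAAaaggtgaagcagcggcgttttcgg
H2BC11, chr6:27132796-27132945, minus strand: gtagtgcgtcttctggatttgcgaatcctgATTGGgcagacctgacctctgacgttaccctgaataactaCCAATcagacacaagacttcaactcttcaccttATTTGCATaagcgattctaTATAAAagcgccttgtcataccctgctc
H4C8, chr6:26285535-26285684, minus strand: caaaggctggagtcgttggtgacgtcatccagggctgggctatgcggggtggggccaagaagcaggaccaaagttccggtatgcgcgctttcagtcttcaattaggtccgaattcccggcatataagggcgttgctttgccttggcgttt
H3-3B, chr17:75779780-75779929, minus strand: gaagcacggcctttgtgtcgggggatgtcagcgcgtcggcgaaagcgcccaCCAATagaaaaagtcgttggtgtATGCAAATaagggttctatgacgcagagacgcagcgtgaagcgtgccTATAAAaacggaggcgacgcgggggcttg

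Of the 59 histone genes, 54 had an entry in the RefSeq promoter table. In the 250 bases before the start, TATAAA was found in 29 of 43 cluster promoters (67.4%), against 11.1% of all 27305 promoters of the same length. CCAAT was found in 39 of 43 (90.7%), against 33.0%, and ATTTGCAT in 18 of 43 (41.9%), against 1.66%. The core of the interferon-stimulated response element was found in 0 of 43 cluster promoters and in 3.07% of all promoters. The octamer was found in 9 of 12 H2A and 9 of 13 H2B promoters of the clusters and in none of the H1, H3 and H4 promoters. H2AC6 and H2BC11 hold it in the stretches shown, as does the variant gene H3-3B, while the 250 bases of H2BC5 and H2AC19 hold no exact match. H4C8 has no exact match to any of the 4 motifs. Of the 10 cluster genes with an entry that rose, 7 hold TATAAA and 3 the octamer, and of the other 33 cluster genes 22 and 15 do. A match is a description of the letters and shows no binding.

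H2A and H2B genes often lie head to head, with a shared stretch between their starts. Among the detected histone genes 6 such H2A and H2B pairs had starts 215 to 248 bases apart, and in 3 of them 1 gene passed the test. H2BC11 rose with a mean log2 response of 0.49, and its neighbour H2AC11 had 0.08 (limma adjusted p = 0.201). In the deposited table, which has no offset, H2AC11, a dim gene, had log2 ratios of 0.99 and 0.90 in LGP2 and 4KR cells, against 0.83 and 1.01 for H2BC11. All genes had medians of 0.25 and 0.15 there. The ratios of H2AC11 average 2 probes. That in block 24, near the background, went from 1.24 and 1.4 to 3.1 and 3.5, and the other from 9.78 and 11.7 to 15.4 and 16.2. H2BC13 rose by 0.32 and H2AC13 was at 0.09, while in the deposited table H2AC13 had 0.83 and 0.50 against 0.53 and 0.28 for H2BC13. H2AC25 rose by 0.29 and H2BC26 was at -0.01, with deposited ratios of 0.51 and 0.41 against 0.14 and 0.24. The difference within a pair was not tested. By chromosome, as given in the promoter annotation, 8 of 35 tested cluster genes on chromosome 6 and 2 of 7 on chromosome 1 rose. H3C12, which rose, and H3C11, which did not pass, had no entry there and are in neither count.

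The next comparison set the responses of the lines against each other. None of the 41 cluster genes or 11 variants detected on all 4 arrays differed by 1.5-fold, where 0.451% of all genes had a response higher by that much in 4KR cells and 0.426% a lower one. The median difference, 4KR minus LGP2, was 0.04 over the cluster genes, -0.05 over the variants and -0.0024 over all genes. The largest differences on the higher side were those of H4C9 at 0.49, H2BC14 at 0.40 and H2BW1 at 0.30, and H2BC12 at -0.52, H1-10 at -0.29 and H2AB2 at -0.26 had the largest on the lower. H2BC12 had deposited intensities of 547.5 (LGP2) and 634.2 (4KR) unstimulated and of 781.4 (LGP2) and 589.2 (4KR) at 12 h. Only the stimulated LGP2 array stood high. The probes of H4C9 and H2BW1 lie in block 24, that of H2BC12 in block 21 and that of H2BC14 in block 23. The median difference of all probes was 0.12 in block 24, -0.07 in block 21 and 0.03 in block 23. In block 23, MCM5, TENT4A and CHAF1B of the related lists had differences of 0.68, 0.225 and 0.11. With the position correction the differences were 0.37 for H4C9, 0.18 for H2BW1 and -0.45 for H2BC12. LSM10, CSTF2, CHAF1A, GINS1 and CABIN1 of the related lists below also lie in block 24. Their uncorrected differences were 0.565, 0.94, 0.66, 0.44 and 0.09, and the part of array position in any of these values was not tested. Other settings put single genes past 1.5-fold. With the deposited values 2 were higher (H1-6 and H2BW1) and 4 lower (H1-1, H2AB2, H2BC12 and H3C3) of 53 histone genes, where 2.71% and 6.26% of all genes passed. With plain subtraction these were H1-6 and H2BW1 against H2AB2 and H3C3, where 3.79% and 3.3% passed, and without normalization H2BC14 and H4C9 were higher, where 1.47% passed.

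Unstimulated 4KR and LGP2 cells were compared in the same way, with 1 array each. None of the histone genes reached 1.5-fold, where 0.13% of all genes were that much higher in 4KR cells and 0.341% lower. The median log2 ratio was 0.03 over the cluster genes and 0.05 over the variants, against 0.01 over all genes. H1-2, a linker histone that is widely expressed, was the highest in 4KR cells at 0.48, with deposited intensities of 340.3 against 238.7. H2BC12 and H2AB2 followed at 0.25 and 0.22. On the lower side, H4C9 was at -0.54, with 167.9 against 262.9, H4C2 at -0.41, with 123.2 against 177.2, and H2BC14 at -0.36, with 164.2 against 222.2. H4C9 passed 1.5-fold in the deposited table at -0.65, with plain subtraction at -0.61 and without normalization at -0.60, where 2.07%, 2.33% and 0.521% of all genes were that much lower. In the deposited table H1-6 was also past 1.5-fold lower and H2AB2 and H3C3 higher, and with plain subtraction H1-6 and H3C11 lower and H2AB2 higher. With the position correction H4C9 was at -0.43 and H4C2, which lies outside the shifted blocks, at -0.42. H4C9 lies in block 24, as do LSM10, CSTF2, CHAF1A, GINS1 and CABIN1 of the related lists below. Uncorrected, these were at -0.49, -0.64, -0.48, -0.38 and -0.15. How much of the ratio of H4C9 comes with its block was not tested. H4C7 was at -0.26, while H4C8 and H4C5 were at 0.13 and 0.01. Of the 5 detected H4 genes 3 were thus below 0, where 7723 of all 17085 genes were.

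The same comparison was made at 12 h, again with 1 array each. None of the histone genes reached 1.5-fold, where 0.0587% of all genes were that much higher in 4KR cells and 0.0352% lower. The cluster median was 0.06, with 35 of 44 ratios above 0, against -0.0012 over all genes, and the variant median was -0.02. H1-2 was again the highest at 0.25, followed by H2BC11 and H2BC6, both at 0.23. H2BC12 was the lowest at -0.27, with a deposited intensity of 589.2 against 781.4, followed by H4C7 at -0.27, with 41.5 against 59.4, and H4C2 at -0.19. H4C7 and H4C2 were thus lower in 4KR cells and H1-2 higher at both times. With plain subtraction the dim genes H1-4 and H2AC16 passed 1.5-fold, as did 2.7% of all genes. The 2 comparisons of the lines share no array. The cluster median at 12 h was 0.20 without normalization between arrays, with all genes at a median of 0.10.

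**Figure D4:**
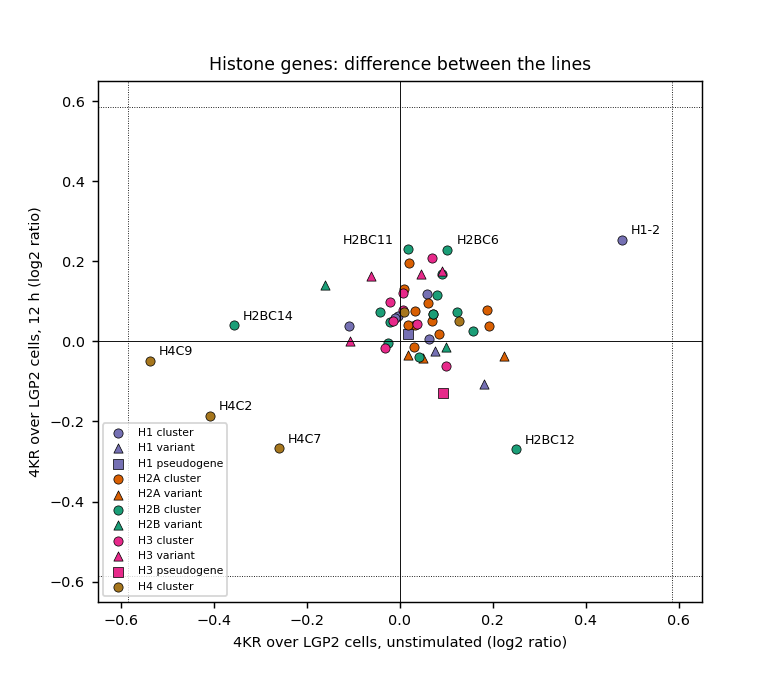
Log2 ratio of 4KR over LGP2 cells for each detected histone gene, unstimulated on the x axis and at 12 h on the y axis, coloured by family. Dotted lines mark 1.5-fold. All genes lie inside them, with H1-2 at 0.48 and 0.25, H4C7 at -0.26 and -0.27, and H2BC12 at 0.25 and -0.27.

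Genes that work on histone messages and histone proteins were measured on the same arrays. Of 23 genes for transcription and 3′ end processing of histone RNA, 6 rose over both lines and 0 fell in the limma fit, where 7.95% and 7.3% of all genes did, with a median mean log2 response of 0.09. CASP8AP2, a protein of the histone locus body, rose by 0.74 (SE 0.0534, limma adjusted p = 0.0242), with deposited intensities of 79.3 and 83.9 unstimulated and of 188.6 and 163.1 at 12 h in LGP2 and 4KR cells. NPAT, the coactivator of the cluster genes, and SLBP, the stem-loop binding protein, rose by 0.26 and 0.29 (limma adjusted p = 0.0378 and 0.0274). ZNF473, a zinc finger protein of the processing complex, and TENT4B, a poly(A) polymerase of the nucleus, rose by 0.41 and 0.32. The other gene that rose, CSTF2T, a cleavage factor subunit, had a mean of 0.31 and is named because so few passed.

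Of 23 histone chaperone genes, 3 rose and 2 fell, near the 7.95% and 7.3% of all genes. DAXX, RBBP7 and ANP32E are named after their values were seen. Those that rose were MCM2, which also belongs to the replicative helicase, at 0.41, DAXX, a chaperone of H3.3, at 0.32 and RBBP7, a histone-binding subunit of several complexes, at 0.22. NAP1L1, a chaperone of H2A and H2B, fell with a mean of -0.41, and ANP32E, which removes H2A.Z, with -0.30. DNAJC9 had a mean of 0.67 and a limma adjusted p of 0.0723, with log2 ratios of 0.92 in LGP2 and 0.42 in 4KR cells and a probe in block 21.

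Of 34 genes listed for S phase and DNA replication, 11 rose and 1 fell, where 7.95% and 7.3% of all genes did. The median mean log2 response of the list was 0.18. The gene that fell was SLC25A15 (mean -0.20, limma adjusted p = 0.0482), a mitochondrial carrier and no replication gene. CDC6, which loads the helicase at origins, rose by 0.61 (SE 0.0600, limma adjusted p = 0.0263), with deposited intensities of 572.7 and 601.5 unstimulated and 983.6 and 841.5 at 12 h. TK1, thymidine kinase, and E2F2, a transcription factor of the G1 to S transition, both rose by 0.59. The median of the list was 0.20 in LGP2 and 0.14 in 4KR cells, against -0.01 over all genes in each line. Of 5 histone genes whose symbols lie outside the rule, H2AX, a variant phosphorylated at DNA breaks, rose by 0.24 (limma adjusted p = 0.0328). H2AJ, MACROH2A1, MACROH2A2 and CENPA did not pass. With plain subtraction none of the genes of these 4 lists passed, and with the deposited values 2 genes of RNA processing and 4 of S phase rose, where 7.29% of all genes did. Without normalization 21, 16 and 32 of the RNA processing, chaperone and S phase genes were higher, and with scaling to 1 median 15, 15 and 30, where 40.5% and 24.3% of all genes were. In both, no gene of these lists was lower.

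**Figure D5:**
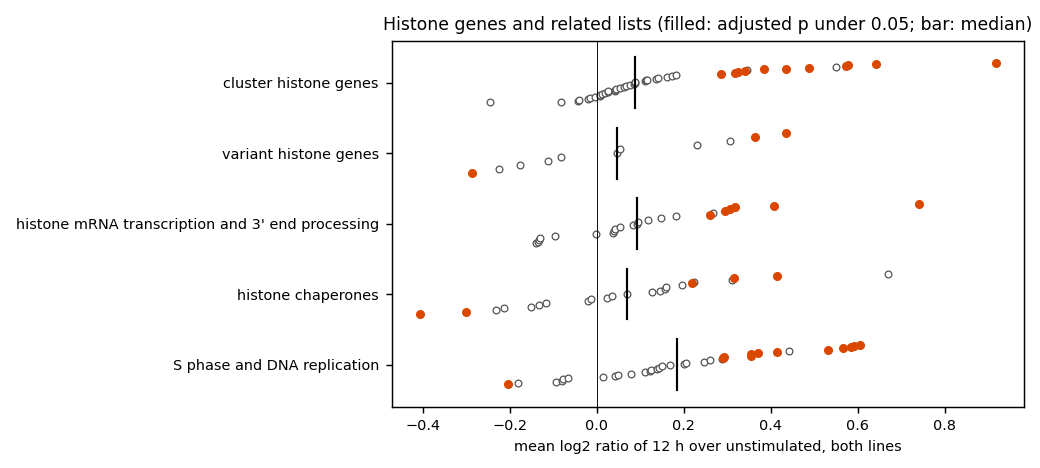
Mean log2 ratio of 12 h over unstimulated in both lines for each tested gene of 5 lists, 1 point per gene, sorted within each list. Filled points passed a limma adjusted p of 0.05 and bars mark the medians, which were 0.09 for cluster histone genes, 0.05 for variants, 0.09 for histone RNA processing, 0.07 for chaperones and 0.18 for S phase genes.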

How the data were processed

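RNA of 2 transgenic HEK293 lines at 2 times was measured on 4 single-colour arrays, 1 per group. Per the file headers, the deposited scanner tables give the median intensity of each spot, from readings at 3 gains, on a linear scale and not normalized. The deposited series table gives an intensity per gene probe, which by comparison with the scanner values equals the spot median less about the mean blank signal, scaled to a median of 25. The scanner's background column followed the spot signal (correlation of logarithms 0.991 to 0.997) and was not used.

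The mean of the 384 blank spots of each array served as background for normexp with an offset of 50 (limma 3.58.1, R 4.3.3). Quantile normalization over the 24460 gene probes and log2 followed, and probes of a gene were averaged. The platform annotation named 1 gene for 21707 probes. The additive fit used lmFit and eBayes with line and stimulation as terms. Where no test was possible, a fold of 1.5 was the threshold, for genes detected on the brighter array. The scripts were tested on simulated data. Histone genes, lists and tests were chosen with earlier results of these data known. Named with all 4 values were the 8 cluster and 6 variant genes with the highest mean level and the 5 cluster and 3 variant genes with the largest mean response in either direction. Also named were the 3 with the largest ratio in each direction between lines, SLBP, NPAT and the 3 leading members of each related list. Other histone genes are named where they passed the test or bound a range. H3-5, H3C11, H3C12, H1-9P and H3P44 had no entry in the promoter table. The alternatives are plain subtraction, an offset of 16, no normalization between arrays, scaling to 1 median, the deposited table, a position correction, leaving out blocks 20, 21 and 24, the brightest probe of a gene, and other filters.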

Additional observations from a re-analysis of the deposited data

Results flagged for a closer look

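For 14 of the 53 histone genes detected on all 4 arrays, the response was above 0 in 1 line and below 0 in the other. The share of all genes with responses of opposite sign was not counted, so the number cannot be read as particular to histone genes. The median response of all genes was -0.01 in each line. Several of the 14 lay close to 0 in both lines, such as H2BC1 at -0.01 and 0.01. With 1 array per group the difference was not tested. The largest, 4KR minus LGP2, were -0.52 for H2BC12 (0.44 in LGP2 and -0.08 in 4KR cells) and 0.40 for H2BC14 (-0.08 and 0.31). H2AB2, H1-2 and H3P44 were at -0.26, -0.22 and -0.22. H3C3, H2BW2, H2BC9 and H1-1 were at -0.16, -0.12, -0.0817 and -0.0580. H1-6, H2BC6, H3C6, H2BC26 and H2BC1 were at 0.15, 0.13, 0.12, 0.0701 and 0.0217. The probes of H2BC12 and H3P44 lie in block 21, that of H1-6 in block 24 and that of H2BC14 in block 23.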

How the results depend on the processing

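Groups of 1 array leave no replicate to leave out, and the labels give no replicate numbers. The additive fit compares the times within each line, so it is blocked by line. A median that moved by up to 0.1 on the log2 scale, or a count within 1.5 times, is taken as kept. Leaving out blocks 20, 21 and 24, the brightest probe, the filters and the position correction kept every median and every count past 1.5-fold given here. With plain subtraction, no normalization, scaling to 1 median and the deposited table, the median of the cluster genes in LGP2 cells was 0.23, 0.36, 0.28 and 0.48, and in 4KR cells 0.30, 0.57, 0.30 and 0.44. The counts past 1.5-fold were 9, 11, 7 and 14 in LGP2 cells and 12, 19, 9 and 13 in 4KR cells, with 8 in 4KR cells at an offset of 16. The shares of all genes were 10.1%, 6.99%, 5.12% and 20.6% in LGP2 cells and 8.3%, 15.8%, 5.21% and 13.2% in 4KR cells, with 2.75% at an offset of 16. Counts past 1.5-fold between the lines, 0 at the main setting, are given with each comparison. The variant median in 4KR cells was 0.24 without normalization and 0.12 in the deposited table. Without normalization the cluster median of the difference of the responses was 0.18 and that of the lines at 12 h was 0.20. The cluster median lay above that of all genes in all 5 comparisons under every setting.

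In the additive limma fit, cluster genes higher numbered 1 with plain subtraction, 28 without normalization and 26 with scaling to 1 median, where 0.433%, 40.5% and 24.3% of all genes were. The number lower was 1 with an offset of 16, the position correction, blocks 20, 21 and 24 left out, and genes detected on all 4 arrays. Of all genes, 10.3% were lower with that offset, 10% with the position correction and 14.3% with the blocks left out. Variants higher numbered 0 with plain subtraction, 5 without normalization, 5 with scaling to 1 median and 1 in the deposited table, where 7.29% of all genes were. Variants lower numbered 0 in those same 4 settings, where 0%, 0.123%, 2.4% and 0.488% of all genes were. They numbered 2 in each of the 4 settings that gave 1 cluster gene lower. H1-8 changed sign to 0.0713 without normalization, and the cause was not tested. Its ratios there, 0.03 in LGP2 and 0.11 in 4KR cells, stayed below the all-gene medians of 0.12 and 0.26. The offset of 50 limits what can be seen of dim genes, and probes near the blank level have the least precise ratios.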
